A study of Mus musculus with 8 samples.

Results

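The genes described here are 10 genes of iron handling and metal binding, read from RNA of injured mouse kidney. They are the receptors Tfrc and Tfr2, the ferrous iron transporter Slc11a2, the reductase Steap3, the ferritin subunits Fth1 and Ftl1, the exporter Slc40a1, the ferroxidase Cp, and the metallothioneins Mt1 and Mt2. They were chosen by symbol for their known function, with earlier results of these data known. Each symbol matched 1 of the 42256 identifiers in the deposited count table, and 10 of 10 passed the filter on low counts, which left 15852 genes for testing. Whole kidneys came from 8 adult male mice on a mixed 129S1/Sv x C57BL/6 background, 4 labelled CDH11+/+ and 4 labelled CDH11-/-. Cadherin-11 is an adhesion protein of mesenchymal cells; the labels do not say how the allele was made or whether the mice were littermates. Every mouse of both labels had received aristolochic acid, a plant compound toxic to the proximal tubule, at 3 mg/kg on each of 5 days, and the kidney was taken 2 weeks after the final dose. The title of the series names a different injury, Unx/AngII, and the labels and design text were followed here. No uninjured mice were analysed here, so the values compare the labels within injury and give no effect of the injury itself.

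Cells take up transferrin-bound iron through the receptor Tfrc, reduce it in the endosome, pass it to the cytosol through Slc11a2, store it in ferritin and release it through Slc40a1. When iron is scarce, the iron regulatory proteins encoded by Aco1 and Ireb2 bind hairpins called iron-responsive elements: binding in a 5′ UTR blocks translation of ferritin and ferroportin, and binding in the 3′ UTR protects the Tfrc transcript from decay. In the kidney, the proximal tubule reclaims filtered iron, and ferritin in the tubule protects against acute injury. Metallothioneins are small cysteine-rich proteins that bind zinc and copper, and their genes are induced by zinc through Mtf1 and by glucocorticoids.

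The hairpin letters are shown because they are what ties Tfrc, the ferritins and Slc40a1 into one control loop. The UTRs of GENCODE transcripts (GRCm38, the assembly that mm10 names) were searched on the transcript strand for CNNNNNCAGTGN followed by 5 bases able to pair with the 5 before the loop, G with U allowed. Such a match stood in the 5′ UTR of 31 of 20899 genes (0.148%) and in the 3′ UTR of 129 of 21685 (0.595%). Among the 10 genes it stood in the 5′ UTR of Fth1, Ftl1 and Slc40a1 and 4 times in the 3′ UTR of Tfrc. The letters were not found in an annotated UTR of the other 6 genes. The search required all 5 pairs without a gap, so an element with an unpaired base in that stem would be missed. The result therefore does not show that these 6 genes, Slc11a2 among them, lack an iron-responsive element. Sequences are given 5′ to 3′ as DNA letters, with the bulged C and the loop in capitals.
Fth1, 5′ UTR, chr19:9982732-9982760, plus strand: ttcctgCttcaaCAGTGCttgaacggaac
Ftl1, 5′ UTR, chr7:45459779-45459807, minus strand: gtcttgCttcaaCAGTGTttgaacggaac
Slc40a1, 5′ UTR, chr1:45925465-45925493, minus strand: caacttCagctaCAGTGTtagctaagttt
Tfrc, 3′ UTR, chr16:32631219-32631247, plus strand: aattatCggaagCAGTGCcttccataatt
Tfrc, 3′ UTR, chr16:32631598-32631626, plus strand: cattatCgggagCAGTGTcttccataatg
Tfrc, 3′ UTR, chr16:32631663-32631691, plus strand: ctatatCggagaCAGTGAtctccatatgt
Tfrc, 3′ UTR, chr16:32631710-32631738, plus strand: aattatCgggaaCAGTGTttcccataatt
The upper stem of the Fth1 and Ftl1 elements is spelled alike and their loops differ in the last letter, while the Slc40a1 element has another stem around the loop of Ftl1. A match is a description of letters. Of the genes that carry one, RNA counts measure the transcript and not its translation.

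Libraries held 10675309 to 18539479 counts, and the totals of the labels gave p = 0.0857 in an exact permutation test, two-sided (the smallest that 4 against 4 can give is 0.0286). Levels are in CPM, counts scaled by TMM library size to a common total. A log2 fold change is CDH11-/- over CDH11+/+ with its standard error, and a gene is said to have risen or fallen at an adjusted p under 0.05. The targeted gene went against its label: Cdh11 was at 58.0 to 75.5 CPM in the libraries labelled CDH11+/+ and at 89.7 to 117 CPM in those labelled CDH11-/-, a log2 fold change of 0.69 ± 0.11 (edgeR adjusted p = 0.0249). In the authors' normalized values its labels overlapped, at 1036 ± 235 against 1222 ± 158 normalized counts (SD, n = 4 each). Which exons the allele removes is not known from the labels, and a count over the whole gene cannot show it, so the groups are named by their labels throughout. Kidney markers were high in every library, for example Umod at 1067 to 2194 CPM. Liver transcripts stood apart in CDH11-/- replicate 2, where Alb reached 294.5 CPM against 0.604 to 20.4 CPM in the other 7 libraries. The 15 proximal tubule markers all had negative fold changes, with a median of -0.80, and 1 of them fell, the dicarboxylate transporter Slc13a3 (edgeR adjusted p = 0.0469). Of the 15, 11 were at an unadjusted p under 0.05 by edgeR, against 14.4% of all genes tested. The labels did not overlap for 7, against 7.33% of all genes. DESeq2 called 8 lower and limma-voom 7, where they called 3.04% and 4.32% of all genes in either direction. Their summed level ranged from 2899 to 8638 CPM in CDH11+/+ libraries and from 2432 to 6348 CPM in CDH11-/- libraries, with none of the 15 at 0. Much of the spread of this sum came from 1 variable gene, Kap. Kap was at 283 to 4357 CPM in CDH11+/+ libraries and at 611.5 to 3306 CPM in CDH11-/- libraries. Medians of the other marker lists were -0.12 (loop, distal tubule and collecting duct), -0.01 (injured tubule), 0.10 (proliferation) and 1.89 (liver, 6 genes tested), with none past the threshold in edgeR. DESeq2 called the injured tubule markers Spp1 and Vcam1 lower and the liver marker Serpina1a higher. From these lists limma-voom called Vcam1 alone, lower. In whole-kidney RNA, fewer cells of a type and less RNA per cell cannot be told apart.

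Of the 10 genes, the ferroportin gene Slc40a1 fell in the libraries labelled CDH11-/-, to 0.772 of its level in those labelled CDH11+/+, and none rose by edgeR. DESeq2 called Slc40a1, Tfrc and Slc11a2 lower and Mt2 higher (3.04% of all genes called), and limma-voom with quality weights added Cp, lower (4.32% called). The authors' normalized values and factors called none of the 10 (0.341% and 0.41% of all genes called), and 1 surrogate variable called 4 (4.57%). Leaving out CDH11+/+ replicate 1 and CDH11-/- replicate 2 together, an alternative added after the data were seen, called 5 (11.5%). Over all 15852 genes, 0.366% fell and 0.36% rose. The libraries of the labels did not overlap for 3 of the 10 genes (Slc40a1 and Slc11a2 lower, Mt2 higher in CDH11-/-), against 7.33% of all genes tested (3.74% lower, 3.59% higher), and 6 of 10 were at an unadjusted p under 0.05, against 14.4%. Fold changes were negative for 7 of 10 genes, against 52.4% of all genes. Their median was -0.24, beside -0.01 for all genes tested. The summed level of the 10 genes, most of it ferritin, was 5583 to 5973 CPM in CDH11+/+ libraries and 5109 to 5190 CPM in CDH11-/- libraries.

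**Figure D1:**
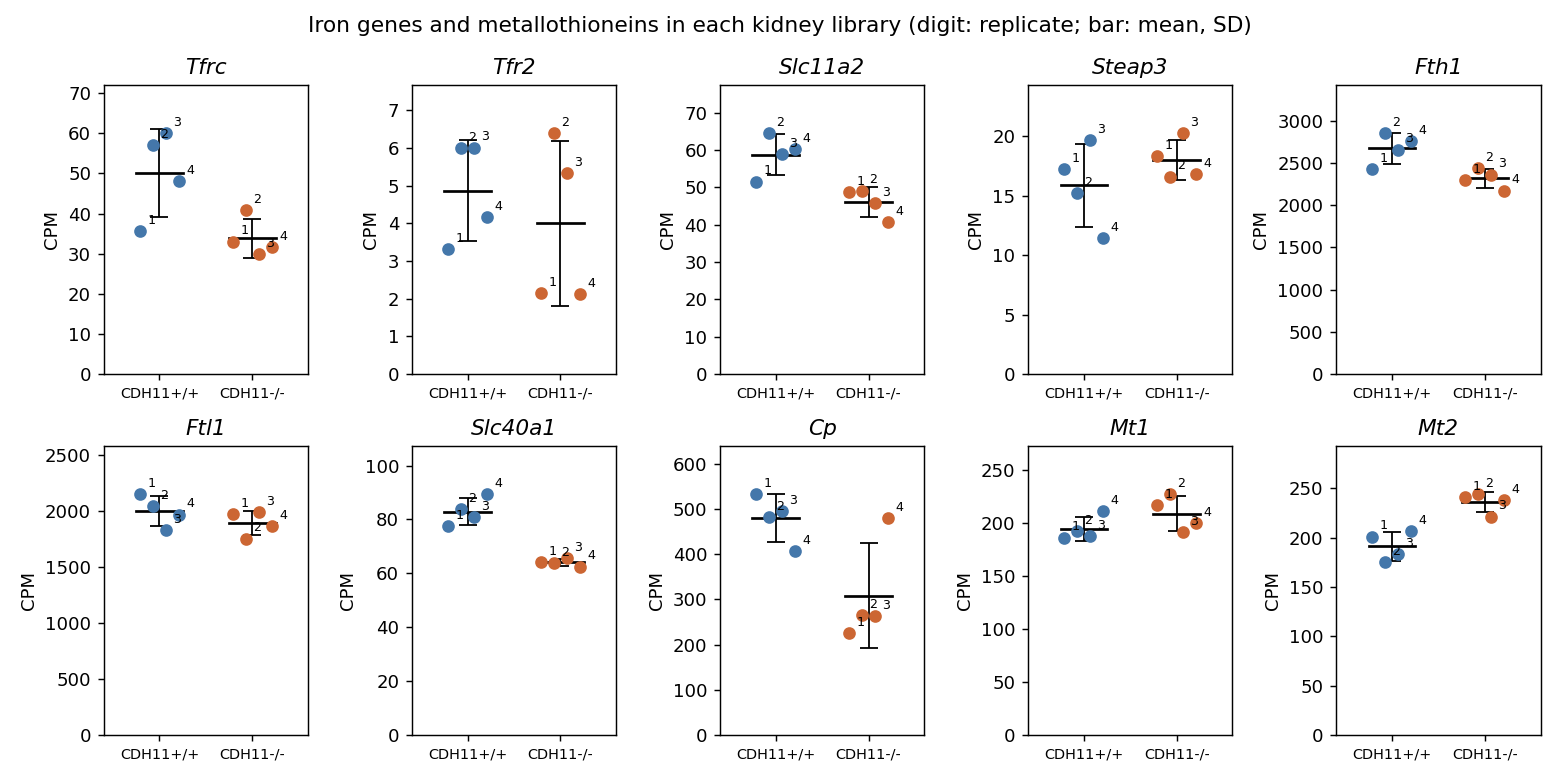
CPM of each of the 10 genes (y axis, linear from 0) in each kidney library, by label (x axis); points are libraries with their replicate number, bars the mean and SD of 4 libraries. Slc40a1 and Slc11a2 lie lower and Mt2 higher in every CDH11-/- library, and Cp has 1 CDH11-/- library at 480.5 CPM among 3 others of 224.8 to 264.6 CPM.

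Among the genes of iron uptake, Tfrc (ENSMUSG00000022797, chr16:32608920-32632794) encodes transferrin receptor 1, which carries iron-loaded transferrin into the cell. It was at 35.7, 57.1, 60.0 and 48.0 CPM in CDH11+/+ replicates 1 to 4, and at 33.0, 40.9, 29.8 and 31.7 CPM in CDH11-/- replicates 1 to 4. CDH11+/+ replicate 1 alone lay inside the range of the other label, and the remaining 3 libraries of that label were all above it. Means were 50.2 ± 10.97 against 33.9 ± 4.89 CPM (SD, n = 4 each), with a log2 fold change of -0.57 ± 0.16 (edgeR adjusted p = 0.170). Without CDH11+/+ replicate 1 the value was -0.69 (edgeR adjusted p = 0.00818), in a fit that called 6.21% of all genes. That library also had the lowest proximal tubule sum of its label, 2899 CPM against 6065 to 8638 CPM in the other 3. Within that sum Kap was at 283 CPM, against 1787 to 4357 CPM in the other 3. CDH11+/+ replicate 1 was likewise the lowest of its label for Tfr2, Slc11a2, Slc40a1, Fth1 and Mt1. It was the highest of its label for Ftl1 and Cp, and neither for Steap3 and Mt2. The part of tubule content in these differences was not tested.

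The second receptor, Tfr2 (ENSMUSG00000029716, chr5:137569840-137587481), senses iron-loaded transferrin in liver and red cell precursors and was rare in these kidneys. Its levels were 3.32, 5.99, 6.00 and 4.16 CPM in CDH11+/+ libraries and 2.15, 6.39, 5.32 and 2.12 CPM in CDH11-/- libraries. The ranges overlapped, and the spread within CDH11-/- was the wider. The log2 fold change was -0.26 ± 0.37 (edgeR adjusted p = 0.793), and its sign turned with the authors' normalized values, to 0.02. CDH11-/- replicate 2, the library with liver transcripts, was the highest of its label, and without it the value was -0.56.

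Slc11a2 (ENSMUSG00000023030, chr15:100387898-100425072), known as DMT1, moves ferrous iron out of endosomes and across the apical membrane. It was at 51.6, 64.6, 58.9 and 60.2 CPM in CDH11+/+ libraries and at 48.8, 49.2, 45.8 and 40.7 CPM in CDH11-/- libraries. All CDH11-/- libraries lay below all CDH11+/+ libraries, the closest pair being 49.2 and 51.6 CPM. Means were 58.8 ± 5.39 against 46.1 ± 3.93 CPM (SD, n = 4 each), with a log2 fold change of -0.35 ± 0.08 that did not pass the test (edgeR adjusted p = 0.0897). With the authors' normalized values the difference was less, -0.16 (limma adjusted p = 0.627), and the labels overlapped, at 620 to 901 against 627 to 735 normalized counts. Steap3 (ENSMUSG00000026389, chr1:120190757-120272705), the ferrireductase of the endosome, was at 17.2, 15.2, 19.7 and 11.4 against 18.3, 16.6, 20.2 and 16.8 CPM. Its labels overlapped, with a log2 fold change of 0.19 ± 0.15 (edgeR adjusted p = 0.621).

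Storage was represented by the ferritin subunits, the most abundant of the 10 transcripts. Fth1 (ENSMUSG00000024661, chr19:9980598-9985098), the heavy subunit that oxidizes iron on entry to the shell, was at 2423, 2851, 2657 and 2755 CPM in CDH11+/+ libraries and at 2298, 2440, 2359 and 2171 CPM in CDH11-/- libraries. The ranges overlapped only because CDH11-/- replicate 2 lay just above CDH11+/+ replicate 1. Means were 2672 ± 184 against 2317 ± 113 CPM (SD, n = 4 each), and the log2 fold change of -0.21 ± 0.08 did not pass the test (edgeR adjusted p = 0.274). Ftl1 (ENSMUSG00000050708, chr7:45457944-45459884), the light subunit that favours core formation, was at 2155, 2046, 1834 and 1970 CPM against 1973, 1755, 1989 and 1870 CPM. Its labels overlapped over most of their range, with a log2 fold change of -0.08 ± 0.08 (edgeR adjusted p = 0.708). Ftl1 has a near copy, Ftl1-ps1, counted at 343.5 CPM, so the split of reads between them is uncertain; Ftl2-ps, Fth-ps2 and Ftl1-ps2 were each below 1 CPM.

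Across the 8 libraries, pooled over labels, no close correlation of Fth1 with Ftl1 was seen. Fth1 nearly separated by label, so the pooled value mixes the difference between labels with the spread within them. With 8 libraries, a low value does not show that the subunit transcripts vary apart. The Pearson correlation of their log2 CPM was 0.154 (exact permutation p = 0.712, adjusted 0.712 over 3 pairs) and the Spearman rho was 0.0476 (exact permutation p = 0.935, adjusted 0.935). Without the 2 libraries farthest from the Fth1 median the Pearson value was -0.17. Counts of Fth1 per count of Ftl1 ran from 1.12 to 1.45 in CDH11+/+ libraries and from 1.16 to 1.39 in CDH11-/- libraries, which overlap. For the pairs Mt1 with Mt2 and Tfrc with Slc11a2 no pooled correlation is given, because Mt2 and Slc11a2 separate by label and 4 libraries within a label are too few.

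Among the genes of iron export, Slc40a1 (ENSMUSG00000025993, chr1:45908068-45926523, minus strand) encodes ferroportin, the exporter through which iron leaves cells, abundant in macrophages and the basolateral tubule. It was at 77.6, 83.7, 80.9 and 89.5 CPM in CDH11+/+ libraries and at 64.1, 63.8, 65.7 and 62.5 CPM in CDH11-/- libraries. The 4 CDH11-/- libraries lay close together, and all were below the lowest CDH11+/+ library. Means were 82.9 ± 5.04 against 64.0 ± 1.32 CPM (SD, n = 4 each), and Slc40a1 fell by 0.37 ± 0.06 on the log2 scale (edgeR adjusted p = 0.0224, rank 41 of all genes tested).

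The size of the Slc40a1 difference held between -0.40 and -0.32 over 20 other ways of processing, and 11 of them called it. Its adjusted p ranged from 7.3e-05 with DESeq2 to 0.0834. The call ended with the authors' normalized values or factors (adjusted p 0.0555 to 0.0602), and on leaving out CDH11+/+ replicate 2 or 4 or any 1 of the 4 CDH11-/- libraries (edgeR adjusted p 0.0543 to 0.0834). In the authors' normalized values Slc40a1 was at 1147 ± 73.0 against 890 ± 33.1 normalized counts (SD, n = 4 each), again with no overlap. Relative to ferritin it was also lower, at 29.4 to 32.5 counts per 1000 counts of Fth1 in CDH11+/+ libraries and 26.1 to 28.8 in CDH11-/- libraries. Relative to Slc11a2 the labels overlapped, at 1.296 to 1.504 against 1.297 to 1.535 counts per count. Of the cell types known to carry ferroportin, 12 of 13 tested macrophage markers had positive fold changes, with a median of 0.15. None passed the test by edgeR, and 2 were at an unadjusted p under 0.05, against 14.4% of all genes tested. DESeq2 called 1, Ccr2, higher, and limma-voom called Ccr2 higher and Timd4 lower. Their edgeR log2 fold changes were 0.85 and -2.06, and Timd4 was rare, at means of 1.83 against 0.437 CPM. Summed levels of the macrophage markers were 3624 to 5214 CPM against 4217 to 5424 CPM. Proximal tubule markers had negative fold changes, as given above, and their part in the Slc40a1 difference was not tested.

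Cp (ENSMUSG00000003617, chr3:19957054-20009145) encodes ceruloplasmin, the copper ferroxidase that loads exported iron onto transferrin and an acute phase protein. It was at 533.6, 482.5, 495.4 and 406.3 CPM in CDH11+/+ libraries and at 224.8, 264.6, 263.2 and 480.5 CPM in CDH11-/- libraries. CDH11-/- replicates 1 to 3 were below every CDH11+/+ library, and replicate 4 lay among the CDH11+/+ values. Means were 479.5 ± 53.4 against 308 ± 116 CPM (SD, n = 4 each), with a log2 fold change of -0.64 ± 0.24 that did not pass the test (edgeR adjusted p = 0.288). Without CDH11-/- replicate 4 it was -0.92 (edgeR adjusted p = 0.00395, in a fit that called 0.374% of all genes), and limma-voom, which weights libraries by quality, gave -0.71 (adjusted p = 0.0425). Cp overlaps Hps3 on the opposite strand (43.4 CPM), and reads of the pair may not have been told apart, since no source used here says whether strand was used in counting. The library rich in liver transcripts, CDH11-/- replicate 2, was at 264.6 CPM of Cp, and CDH11-/- replicate 4 at 480.5 CPM. The part of liver RNA in Cp was not tested.

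**Figure D2:**
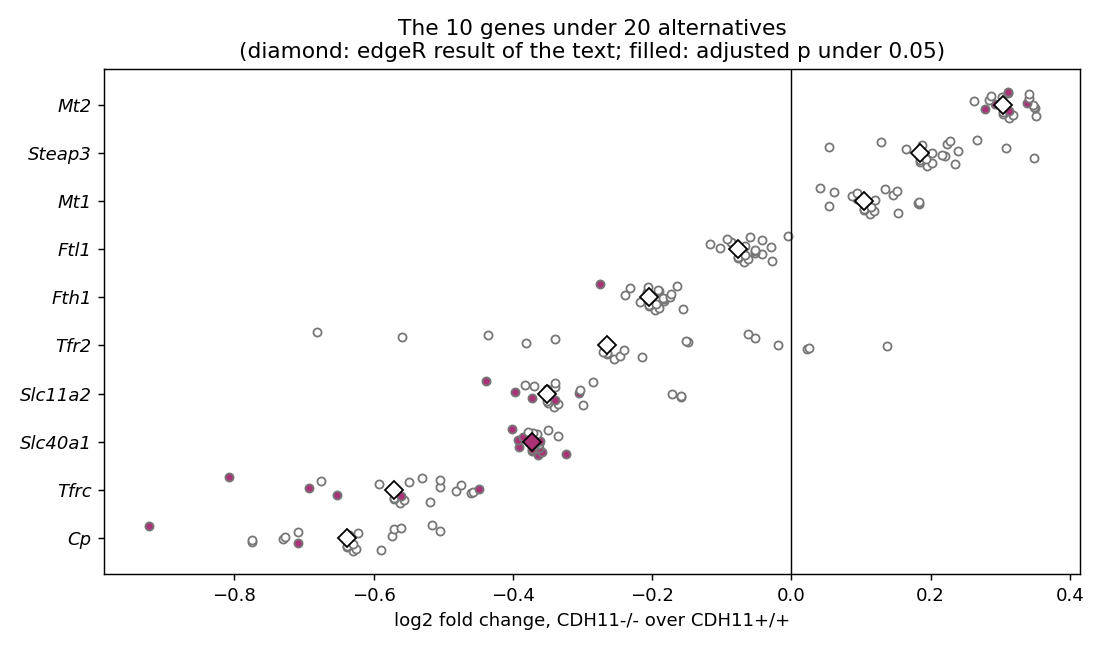
Log2 fold change (x axis, CDH11-/- over CDH11+/+) of each gene (y axis) in the edgeR result of the text (diamond) and under 20 other ways of processing (circles); filled symbols have an adjusted p under 0.05. Slc40a1 is filled in the edgeR result and in 11 of 20 others and stays between -0.40 and -0.32, while Tfr2 spreads across 0 and the Cp point at -0.92 is the fit without CDH11-/- replicate 4.

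The metallothionein genes lie side by side on chromosome 8, Mt2 (ENSMUSG00000031762) at chr8:94172664-94173568 and Mt1 (ENSMUSG00000031765) at chr8:94179082-94180327. Mt2 was at 201, 175, 184 and 206 CPM in CDH11+/+ libraries and at 242, 244, 221 and 238 CPM in CDH11-/- libraries. Every CDH11-/- library was above every CDH11+/+ library. Means were 192 ± 14.7 against 236 ± 10.4 CPM (SD, n = 4 each), with a log2 fold change of 0.30 ± 0.07 that did not pass the test (edgeR adjusted p = 0.0742). Mt1 was at 186, 192, 188 and 211 CPM against 217, 227, 191 and 200 CPM. Its labels overlapped, with a log2 fold change of 0.10 ± 0.07 (edgeR adjusted p = 0.544). In the authors' normalized values, by contrast, the labels did not overlap for Mt1, at 2548 to 2798 against 2808 to 3225 normalized counts, nor for Mt2, Cp and Slc40a1, which makes 4 of the 10 genes against 6.98% of all genes.

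The ratio of Mt2 to Mt1 counts was 1.08, 0.910, 0.979 and 0.979 in CDH11+/+ libraries and 1.12, 1.08, 1.16 and 1.19 in CDH11-/- libraries. The labels touched at 1 pair, CDH11+/+ replicate 1 and CDH11-/- replicate 2, and the remaining libraries were apart. Both genes lie 8.45 to 8.46 Mb from Cdh11. Of the 185 genes tested within 10 Mb of Cdh11, with Cdh11 left out and Mt1 and Mt2 included, edgeR called 1 (0.541%, beside 0.725% over all genes). An effect of the position near Cdh11 was not tested. Among known regulators, the zinc sensor Mtf1 was at -0.09 ± 0.08 (edgeR adjusted p = 0.684), and its target Slc30a1, a zinc exporter, at -0.21 ± 0.14 (edgeR adjusted p = 0.527). Of 11 glucocorticoid target genes, edgeR and limma-voom called 2 higher and none lower, DESeq2 also called Errfi1 lower, and the median was -0.04. Those that rose were the transcription factor Zbtb16, by 2.45 ± 0.37 on the log2 scale, and the receptor co-chaperone Fkbp5, by 0.91 ± 0.16 (edgeR adjusted p = 0.0403 for each). Of 20 other ways of processing, 13 called Zbtb16 and 11 called Fkbp5, with adjusted p up to 0.153 and 0.132.

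Levels set per length of the longest principal transcript put the ferritins first, Ftl1 at 2014 and Fth1 at 1670 CPM per kilobase. Their order is not fixed, since the shorter Fth1 transcript gives 2685 CPM per kilobase. Next came Mt2 (419) and Mt1 (367), whose ranges over libraries overlapped, and then Cp at 97.8 CPM per kilobase, apart from its neighbours. Slc40a1 followed at 21.8 and Slc11a2 at 17.4 CPM per kilobase with overlapping ranges, then Tfrc at 8.60 CPM per kilobase. Steap3, at 3.28 to 6.15 CPM per kilobase depending on the transcript, and Tfr2, at 1.44 to 1.56, were the lowest.

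The other genes of iron transport and sensing were read from lists made by function. Over all genes tested, edgeR called 0.725%, DESeq2 3.04% and limma-voom 4.32%, and 14.4% were at an unadjusted p under 0.05 by edgeR. At such shares, a list of this length with none past the threshold is no result about the list, here and in the lists below. Of 17 further transport genes tested, none rose or fell at the threshold by edgeR (4 were at an unadjusted p under 0.05), 11 were negative and the median was -0.04. DESeq2 and limma-voom each called 1, Lrp2. The smallest p belonged to Lrp2, which encodes megalin, the receptor that reclaims filtered transferrin. Its levels were 341 ± 85.7 against 206 ± 40.8 CPM (SD, n = 4 each) and its log2 fold change was -0.73 ± 0.21 (edgeR adjusted p = 0.184). Lrp2 is itself a proximal tubule gene. The metalloreductase Steap1 was at -0.24 ± 0.09 (edgeR adjusted p = 0.263), the ferric reductase Cybrd1 at 0.17 ± 0.30 and the membrane ferroxidase Heph at 0.10 ± 0.12.

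Trf, the gene of transferrin itself, was at 258, 190, 176 and 196 CPM in CDH11+/+ libraries and at 201, 320, 224 and 222 CPM in CDH11-/- libraries. The highest value belonged to CDH11-/- replicate 2, and the labels overlapped, with a log2 fold change of 0.24 ± 0.17 (edgeR adjusted p = 0.565). The zinc and iron importer Slc39a14 was also highest there, at 122 CPM against 65.0 to 86.2 CPM in the others, and its log2 fold change of 0.17 turned to -0.03 without that library. Hamp, which encodes the liver hormone hepcidin, had 58 counts in CDH11-/- replicate 2 and 5 in replicate 3, 2 counts in CDH11+/+ replicate 4 and 0 in the other 5 libraries. A count of 0 allows up to 3 counts, or 0.201 to 0.276 CPM in these libraries, counting error only, and Hamp did not pass the filter. In the same CDH11-/- replicate 2, Apoa1 was at 45.3 CPM and Ahsg at 41.8 CPM, and both were at 0 in CDH11-/- replicate 1. The part of liver RNA in Trf, Slc39a14 and Tfr2 was not tested. Slc40a1 and Mt2 were nearly the same size without that library, at -0.37 and 0.29.

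**Figure D3:**
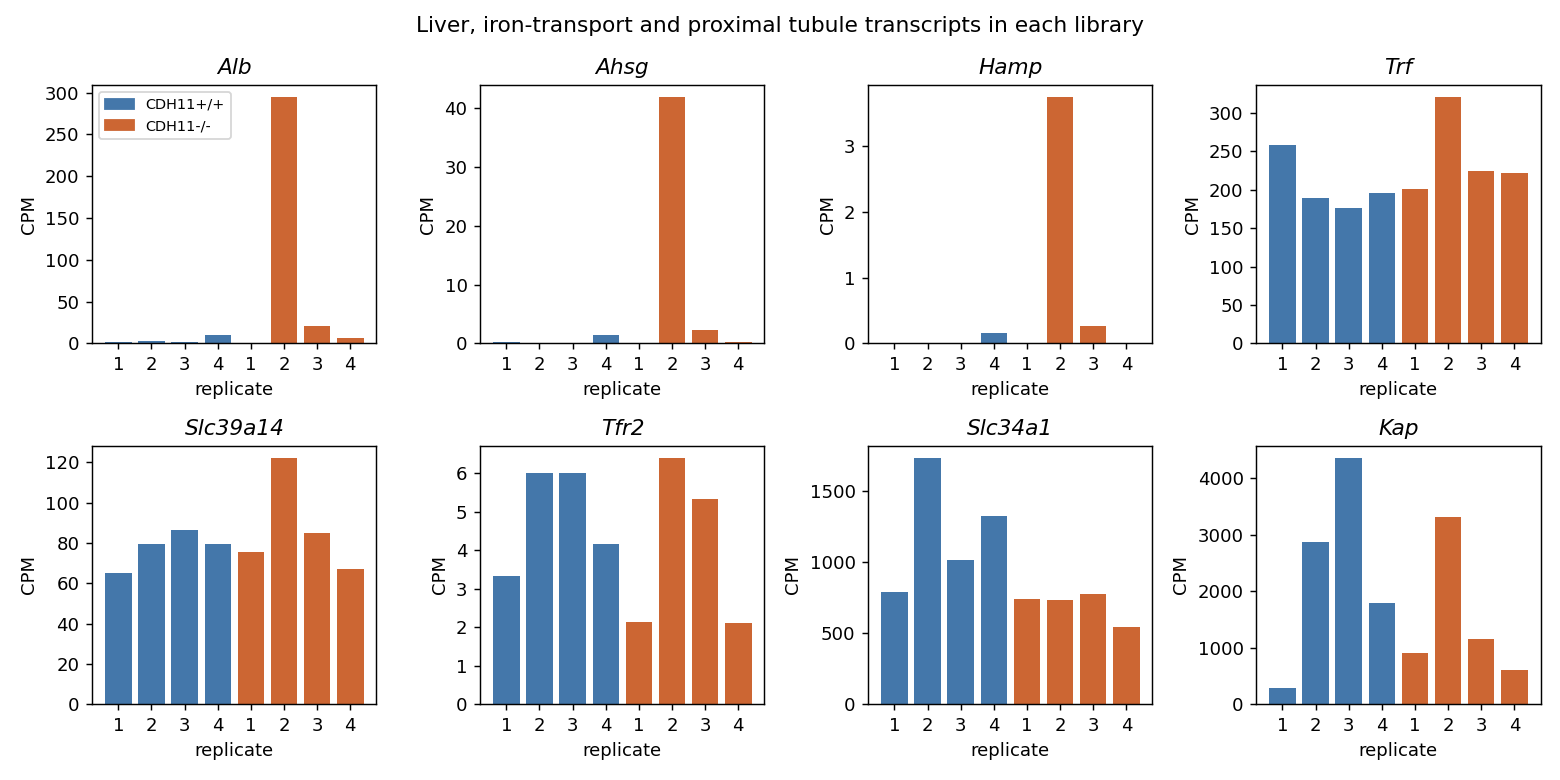
CPM (y axis, linear from 0, 1 scale per gene) in each library (x axis, replicate number; blue CDH11+/+, orange CDH11-/-) of liver transcripts (Alb, Ahsg, Hamp), iron genes (Trf, Slc39a14, Tfr2) and proximal tubule transcripts (Slc34a1, Kap). CDH11-/- replicate 2 holds the highest Alb, Ahsg, Hamp, Trf, Slc39a14 and Tfr2, and CDH11+/+ replicate 1 the lowest Kap, 283 CPM.

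Of 11 genes of iron sensing and ferritin turnover tested, none passed the threshold by edgeR, 6 were negative and the median was -0.01. Of the 11, 4 were at an unadjusted p under 0.05, against 14.4% of all genes. DESeq2 called 1 of them, Epas1, and limma-voom 2, Epas1 and Aco1. The iron regulatory protein gene Aco1 was at 133, 192, 191 and 173 CPM against 132, 152, 128 and 117 CPM, a log2 fold change of -0.38 ± 0.12 (edgeR adjusted p = 0.191) with overlap at CDH11+/+ replicate 1. Its partner Ireb2 was at -0.10 ± 0.06 (edgeR adjusted p = 0.487), and Fbxl5, which marks Ireb2 protein for degradation when iron is present, at 0.07 ± 0.07. Ncoa4, the receptor that delivers ferritin to lysosomes, was at -0.02 ± 0.06. Epas1, the hypoxia factor that drives Slc40a1 and Slc11a2 in the intestine, was at 122 ± 6.90 against 153 ± 12.01 CPM (SD, n = 4 each). Its labels did not overlap, and the log2 fold change of 0.33 ± 0.07 did not pass the test (edgeR adjusted p = 0.0617).

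Of 20 genes of heme synthesis, transport and breakdown, 1 fell, none rose, 14 were negative and the median was -0.09. The fallen gene was the porphyrin and urate exporter Abcg2, at 118, 162, 134 and 137 CPM against 90.9, 104, 104 and 84.6 CPM, with no overlap. It fell by 0.52 ± 0.10 on the log2 scale (edgeR adjusted p = 0.0469), and 9 of 20 other ways of processing called it. The heme oxygenase gene Hmox1, induced by heme and oxidative stress, was at -0.18 ± 0.09 (edgeR adjusted p = 0.379), and the heme exporter gene Flvcr1 at 0.18 ± 0.07 (edgeR adjusted p = 0.293). Markers of red blood cells, which carry heme genes, had positive fold changes for 4 of 4 tested genes, with a median of 0.20; none was at an unadjusted p under 0.05 by edgeR, and 0 were called by DESeq2 or limma-voom.

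Iron-sulfur cluster assembly had 18 genes tested, none past the threshold by edgeR, with 14 negative and a median of -0.16. Of the 18, 6 were at an unadjusted p under 0.05, against 14.4% of all genes. DESeq2 and limma-voom each called 1, Ciapin1. Ciapin1, a cytosolic assembly factor, lies on chromosome 8 within 10 Mb of Cdh11, as the metallothioneins do. It was at 44.8 ± 3.39 against 58.2 ± 5.00 CPM (SD, n = 4 each) with no overlap, a log2 fold change of 0.38 ± 0.08 (edgeR adjusted p = 0.0628). The mitochondrial chaperone Hspa9 was at -0.23 ± 0.08 (edgeR adjusted p = 0.237). Zinc and copper handling had 27 genes tested and none past the threshold by edgeR, 18 negative and a median of -0.09. Of the 27, 6 were at an unadjusted p under 0.05, against 14.4% of all genes. DESeq2 called 2, Slc30a2 and Slc39a5, and limma-voom 3, the same genes and Slc30a9. The smallest p-values of the zinc and copper list belonged to the zinc transporters Slc30a2, at -0.52 ± 0.11 (edgeR adjusted p = 0.0681), and Slc39a5, at -1.05 ± 0.23 (edgeR adjusted p = 0.0738). Mt4, the metallothionein of squamous epithelium, had 0 counts in all 8 libraries.

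The list of lipid peroxide and antioxidant genes mixes genes that limit oxidation of membranes with some that promote it (Acsl4, Lpcat3, Alox15) or restrain the antioxidant response (Keap1), so its median has no single meaning. It had 20 genes tested and none past the threshold by edgeR, 14 negative and a median of -0.19. Of the 20, 5 were at an unadjusted p under 0.05, against 14.4% of all genes. DESeq2 called 1, Srxn1, and limma-voom 2, Srxn1 and the catalase gene Cat. Srxn1, which restores oxidized peroxiredoxins, was nearest, at 78.3 ± 3.86 against 58.2 ± 7.05 CPM (SD, n = 4 each) with no overlap and a log2 fold change of -0.43 ± 0.09 (edgeR adjusted p = 0.0512). The cystine transporter chain Slc3a2 was at -0.21 ± 0.08 (edgeR adjusted p = 0.260). Acute phase genes, a class that Cp and Mt2 are often counted in, had 11 tested, of which edgeR called 1 lower and none higher, 8 were negative and the median was -0.51. DESeq2 called C3 and Fgg lower and Serpina3n higher, and limma-voom C3 lower and Serpina3n higher. Complement C3 fell by 0.79 ± 0.09 on the log2 scale (edgeR adjusted p = 0.00263), from 2072 to 2524 CPM in CDH11+/+ libraries to 1200 to 1426 CPM in CDH11-/- libraries, and was called in 20 of 20 other ways of processing. In the opposite direction, the protease inhibitor Serpina3n was at 35.6 ± 5.40 against 49.1 ± 1.22 CPM (SD, n = 4 each), with a log2 fold change of 0.46 ± 0.10 that did not pass the test (edgeR adjusted p = 0.0617) but did under 6 of 20 other ways of processing.

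**Figure D4:**
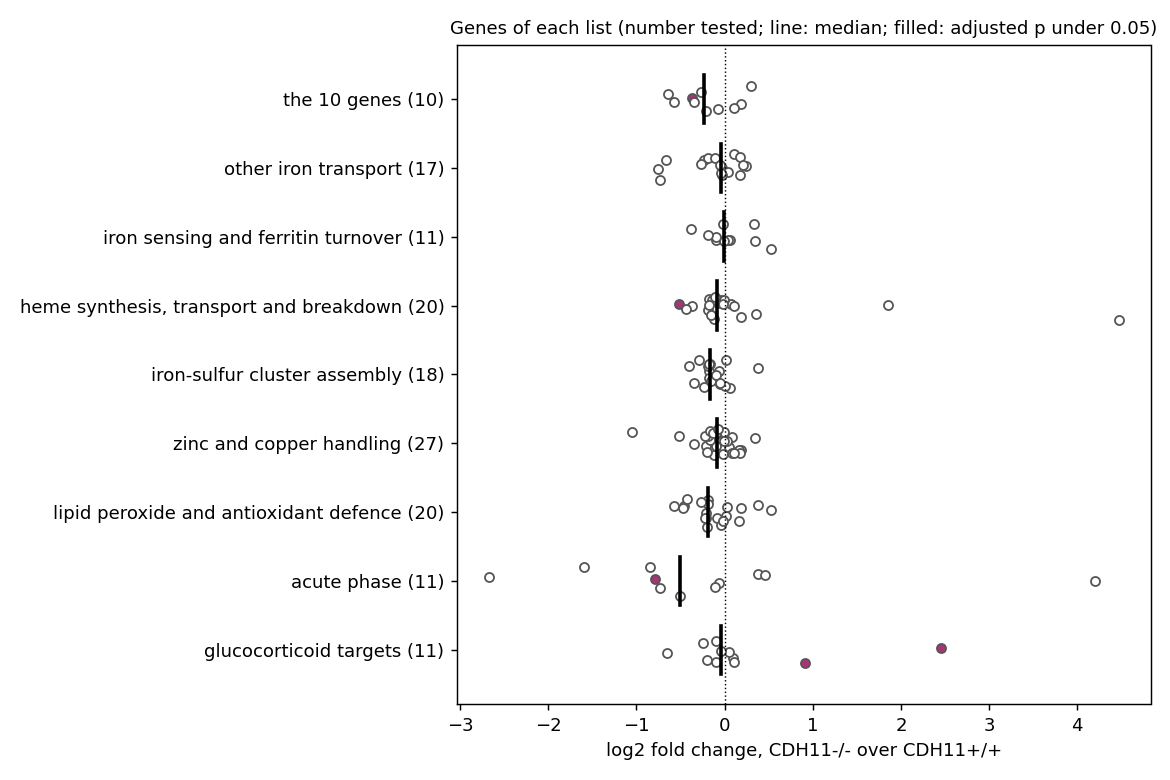
Log2 fold change (x axis, CDH11-/- over CDH11+/+) of each tested gene (circle) in the 10 genes and in 8 lists of related genes (y axis, number tested); the black line is the list's median and filled circles have an edgeR adjusted p under 0.05. Slc40a1, Abcg2, C3, Zbtb16 and Fkbp5 are the filled circles; the heme-list points at 4.47 (Hpx) and 1.85 (Hp) and the acute phase point at 4.20 (Saa1) are liver plasma protein genes that are highest in CDH11-/- replicate 2.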

How the data were processed

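RNA of 8 mouse kidneys was sequenced with a directional library kit, per the labels' protocols. The authors deposited raw whole-number counts for each Ensembl gene. Their second table holds a signal in normalized counts, made by the authors by dividing each count by a factor that differs between genes and libraries. Genome build mm10 and the tools DRAGEN and DESeq2 are named per the submitters' processing notes, with versions, annotation and handling of strand not given in the sources used here. Deposited counts may be rounded estimates. There were 0 columns of other samples, and no 2 libraries were identical.

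Samples were grouped by labelled genotype. No batch, litter or replicate number is in the labels; replicates were numbered in order of deposit, which only names a library. Names, coordinates and UTRs came from GENCODE M21 (GRCm38). Labels were compared by edgeR's quasi-likelihood method (4.0.16, R 4.3.3), scaled by TMM, filtered with filterByExpr and moderated robustly, adjusted by Benjamini-Hochberg over 15852 genes at 0.05. The common biological coefficient of variation was 13.5%. At 10675309 to 18539479 counts per library, levels near 1 CPM come from few reads. On simulated data for this comparison (15676 genes), the test recovered 50.7% of 1.5-fold, 76.1% of 2-fold and 95.5% of 4-fold changes, with 7 false calls. No fold below 1.5 was simulated, and Slc40a1 (0.772), Slc11a2 (0.784) and Mt2 (1.23) differed by less. The counts were drawn independently for each gene, without differences shared by the genes of a library. These rates therefore do not give the power for such genes.

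The 10 genes and the 15 lists (231 symbols with the 10 genes, 230 matched, 212 tested) were chosen with earlier results of these data known. Named genes are the 10, Cdh11, 12 regulators and transporters named whatever their values, the 2 genes of smallest p in each functional list and every gene past the threshold there. Other genes named from DESeq2 or limma-voom, and liver and tubule markers, were chosen after their values were seen. Alternatives were DESeq2 size factors, library size scaling, no filter, a floor of 1 CPM in 4 libraries, no robust moderation, the DESeq2 test (1.42.0), limma-voom (3.58.1, quality weights), the authors' normalized values on the log2 scale in limma (pseudocount 1 or 5), their factors as offsets, 1 surrogate variable (sva 3.50.0) and each library left out. Leaving out CDH11+/+ replicate 1 and CDH11-/- replicate 2 together was added after the data were seen. Two-sided exact permutation tests served totals and correlations.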

Additional observations from a re-analysis of the deposited data

Results flagged for a closer look

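In each label's 4 libraries the highest or lowest value was compared with its nearest neighbour, and a value was singled out where that gap was too large a share of the whole range (Dixon's test at its 95% critical value). Of 98 such groups checked, over the named genes and marker lists, 9 were singled out. Chance singles out about 1 in 20 of independent groups. Liver markers such as Alb and Ahsg were chosen after their values were seen and are high in the same libraries. The 9 therefore cannot be set against that rate.

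Among the 10 iron and metallothionein genes 1 library was singled out: Cp in CDH11-/- replicate 4 was at 480.5 CPM, with the other libraries of that label at 224.8 to 264.6 CPM. Liver transcripts gave the other 8. In CDH11-/- replicate 2 the summed level of the liver list was 637.8 CPM against 90.7 to 160.3 CPM in the other libraries of the label. In that library Alb was at 294.5 CPM (others 0.604 to 20.4), Apoa1 at 45.3 CPM (others 0 to 3.80), Ahsg at 41.8 CPM (others 0 to 2.21) and Hamp at 3.74 CPM (others 0 to 0.264). In CDH11+/+ replicate 4 Alb, Ahsg and Hamp were singled out at far lower levels, and Apoa1 and the liver sum were not. There Alb was at 10.1 CPM (others 1.501 to 2.807) and Ahsg at 1.46 CPM (others 0.0759 to 0.184). Hamp was at 0.154 CPM, which is 2 counts, with 0 in the other libraries of the label.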

How the results depend on the processing

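Over the 10 genes and 20 alternatives, 170 of 200 values kept direction and side of the threshold, 18 passed it newly, 9 lost it and 3 changed sign. Of the 10 genes, edgeR called 1; DESeq2 called 4, limma-voom 5, 1 surrogate variable 4, and the authors' normalized values (pseudocount 1 or 5) and the authors' factors as offsets 0. Leaving out 1 library gave 0 to 4, the 4 without CDH11+/+ replicate 1, and leaving out CDH11+/+ replicate 1 and CDH11-/- replicate 2 together gave 5. The same fits moved the count over all genes from 115 to 520, 685, 724, 54 (both pseudocounts) and 65, to 27 to 998 with 1 library left out (998 without CDH11+/+ replicate 1, 27 without CDH11+/+ replicate 4), and to 1827 with both left out. The cause was not tested. The median of the 10 genes was negative under all 20, from -0.34 to -0.11.

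Sign changes among named genes were small. Tfr2 was at 0.0221 and 0.0247 with the authors' values (pseudocount 1 and 5) and 0.138 with their factors. Ncoa4 was at 0.0309 with library size scaling and 0.0240 with limma-voom, and ran from -0.0501 (without CDH11-/- replicate 3) to 0.0136 (without CDH11-/- replicate 1) with 1 library left out. Mtf1 was at 0.0295 and 0.0292 with the authors' values and 0.0323 with their factors. Cybrd1 ran from -0.00379 (without CDH11+/+ replicate 1) to 0.344 (without CDH11-/- replicate 4) and was at -0.0504 with both libraries left out. Slc39a14 ran from -0.0298 (without CDH11-/- replicate 2) to 0.290 (without CDH11-/- replicate 4) and was at -0.104 with both left out. No paired analysis was possible because the labels number the mice in 1 series and share no replicate number between genotypes. Among the named genes, depth limits Hamp, Cybrd1 (10 to 40 counts per library) and Tfr2 (28 to 101 counts per library) most.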
